A study of Mus musculus with 12 samples.

Results

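DNA methylation was followed through B cell division at 76 mouse genes of glycan assembly. They are the genes whose symbol in the deposited annotation begins with St3gal, St6gal, St8sia, B4galt, B3gnt, Mgat, Man1, Man2, Fut or Galnt and then a number or letter, and that held at least 5 covered CpGs. The symbols gave 77 genes, of which Fut7, with fewer than 5 CpGs, was left out. The 76 genes held 4410 of the 760348 CpGs of the table, and 16816 genes in all had at least 5 CpGs. The rule used names only and no methylation value, though it was set with earlier results of these data known. Prefixes do not always follow function: the set also takes in the lysosomal mannosidases Man2b1 and Man2b2, the cytosolic mannosidase Man2c1 and the pseudogene Fut4-ps1.

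The cells were splenic B cells (B220+ CD43-) of C57/BL6J donors, labelled with CFSE or CTV, dyes that are diluted at every division, and transferred into uMT hosts, mice without mature B cells of their own. The hosts received LPS (lipopolysaccharide, a bacterial ligand that makes B cells divide and form antibody-secreting cells), and cells were sorted from the spleen on day 3. All samples carry the labels female, 8 weeks old and strain B6.SJL-Ptprca Pepcb/BoyJ, and the labels do not say whether these describe donor or host. From each of 2 hosts, numbered 196 and 197, the 6 fractions were undivided cells (Div0), cells after 1, 3 or 5 divisions (Div1, Div3, Div5), and cells with at least 8 divisions that lacked CD138 (Div8neg) or carried it (Div8pos). CD138 marks the surface of antibody-secreting cells. Every fraction, Div0 included, thus came from transferred cells in an LPS-treated host, with no untreated group among the samples analysed here, and Div8neg and Div8pos are open-ended at the top of the division count. Each value below is from 2 hosts per fraction, and an exact permutation test of 2 against 2 samples cannot give a two-sided p below 0.3333, so tests were made in models fitted over all genes or all CpGs.

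Proteins that pass through the secretory pathway receive sugar chains that are trimmed by mannosidases, branched by the Mgat N-acetylglucosaminyltransferases, lengthened with galactose and N-acetylglucosamine by the B4galt and B3gnt enzymes, and capped with sialic acid or fucose by the sialyltransferases and Fut enzymes. The Galnt enzymes start a separate class of chains on serine and threonine. In B cells, sialic acid placed by St6gal1 makes the ligand of the inhibitory receptor Cd22, and antibodies themselves carry such chains. Methylation of cytosine at CpGs is usually low at active starts of transcription and at enhancers and high across the rest of the gene, and can be diluted or removed as cells divide. RNA was not analysed here.

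The starts of several of these genes carried almost no methylation in any fraction, which limits where loss could be seen. The bases just before the RefSeq start of 5 members are shown, picked for their levels. The first 4 had losses at other CpGs listed under their symbol, inside or outside the gene, while the start was unmethylated throughout. Mgat4c had a methylated start. The sequences are RefSeq's, build GRCm38.p6, each of 250 bases read along the gene's own strand, and capitals mark the CpGs with a measured level, placed by the spacing of at least 5 covered CpGs.
St6gal1: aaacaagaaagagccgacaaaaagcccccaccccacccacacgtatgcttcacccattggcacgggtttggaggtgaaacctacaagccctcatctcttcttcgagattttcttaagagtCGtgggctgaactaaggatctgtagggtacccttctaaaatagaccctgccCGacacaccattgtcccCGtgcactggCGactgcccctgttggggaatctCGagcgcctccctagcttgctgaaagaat
B4galt5: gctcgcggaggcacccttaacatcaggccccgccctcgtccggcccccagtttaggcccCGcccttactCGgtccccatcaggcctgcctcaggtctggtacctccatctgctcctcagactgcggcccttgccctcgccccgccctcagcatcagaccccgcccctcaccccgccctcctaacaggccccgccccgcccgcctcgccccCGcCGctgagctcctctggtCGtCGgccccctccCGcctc
Mgat4a: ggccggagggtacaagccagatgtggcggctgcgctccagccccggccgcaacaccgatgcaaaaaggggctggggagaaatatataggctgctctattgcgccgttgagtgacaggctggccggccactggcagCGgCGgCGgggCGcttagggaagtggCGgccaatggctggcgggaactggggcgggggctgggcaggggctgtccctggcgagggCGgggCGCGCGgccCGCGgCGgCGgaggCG
St8sia6: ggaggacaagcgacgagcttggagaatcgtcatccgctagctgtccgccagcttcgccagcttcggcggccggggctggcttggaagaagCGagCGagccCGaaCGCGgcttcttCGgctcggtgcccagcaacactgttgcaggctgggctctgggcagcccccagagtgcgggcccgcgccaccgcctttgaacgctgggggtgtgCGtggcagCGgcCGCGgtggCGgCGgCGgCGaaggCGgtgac
Mgat4c: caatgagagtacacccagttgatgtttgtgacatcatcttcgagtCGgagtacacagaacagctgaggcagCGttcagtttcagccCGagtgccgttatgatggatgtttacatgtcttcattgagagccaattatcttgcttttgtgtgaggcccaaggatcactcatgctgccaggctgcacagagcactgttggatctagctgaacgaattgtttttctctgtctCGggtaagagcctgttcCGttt
In this build these lie at chr16:23225771-23226020 on the plus strand, chr2:167349179-167349428 on the minus strand, chr1:37541017-37541266 on the minus strand, chr2:13793521-13793770 on the minus strand and chr10:102158829-102159078 on the plus strand. Their measured CpGs averaged 2.03% ± 0.42 (SD, n = 2) at Div0 and 1.43% ± 0.51 at Div8pos before St6gal1. The means were 0.595% ± 0.84 and 0.286% ± 0.40 before B4galt5, 1.60% ± 0.90 and 0.898% ± 0.077 before Mgat4a, and 1.96% ± 0.37 and 1.63% ± 0.42 before St8sia6. Before Mgat4c they were 75.5% ± 5.80 and 74.4% ± 7.93. A RefSeq start could be placed on the measured CpGs for 22 of the 55 members that the RefSeq table holds, and 18 of these had at least 3 measured CpGs before a start. Of those 18, 16 were under 20% at both Div0 and Div8pos, and B3gnt7, at 25.6% and 22.4%, and Mgat4c were not.

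Libraries held between 17969105 and 56775157 reads over the 760348 CpGs, with a median coverage of 20 to 66 reads per CpG and 20 to 69 at the member CpGs. Promoter CpGs of B cell genes were checked. Pax5 and Ebf1 were between 0% and 3.44% in the mean of every fraction. Cd22 was at 26.9% at Div0, 6.78% at Div5, 25.1% at Div8neg (30.7% in host 196 and 19.4% in host 197) and 3.32% at Div8pos. The 2 Div8neg libraries therefore stood apart from Div5 and Div8pos at the Cd22 promoter, and the part of this in the Div8neg values below was not tested. Promoters of 3 T cell genes had medians of 95.7% at Div0, 85.6% at Div8neg and 82.9% at Div8pos, and those of 3 NK cell genes 92.3%, 85.0% and 85.1%. The medians in the same order were 67.0%, 65.0% and 55.5% for 2 myeloid genes, 82.0%, 70.8% and 63.3% for 2 erythroid genes, and 5.59%, 3.28% and 1.89% for 3 plasma cell genes.

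The mean methylation of the glycan genes lay close to that of undivided cells through the fifth division, below it after at least 8 divisions, and lowest in CD138+ cells. The mean over the 76 genes was 59.6% in undivided cells, 59.4%, 59.3% and 58.9% after 1, 3 and 5 divisions, 56.4% at Div8neg and 52.4% at Div8pos, with an SD between hosts of at most 0.445 points. The mean over all 16816 genes went from 55.1% to 48.9% in the same fractions. A gene is called lower or higher here where its mean over CpGs differed by at least 10 percentage points with an adjusted p under 0.05 in limma. At Div8pos against Div0, 13 of the 76 genes (17.1%) were lower and 0 were higher, beside 16.0% of all genes lower and 0% higher. The share of members was thus close to that of all genes. The median difference was -6.52 points over the members and -5.80 over all genes. On adjusted p alone 71 of the 76 were lower, beside 83.7% of all genes. The 5 that did not pass at any size were B3gnt3, B3gnt6, B3gnt8, B3gnt9 and St3gal4, of which B3gnt6 and B3gnt9 were under 6% already at Div0 (5.51% and 3.68%). At other CpGs, of a second deposited table, St3gal4 was lower (-16.8 points, limma adjusted p = 7.11e-05). There B3gnt3 (-9.16 points) and B3gnt6 (-5.17) passed on adjusted p alone, and B3gnt8 (-1.99) and B3gnt9 (0.623) did not.

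**Figure D1:**
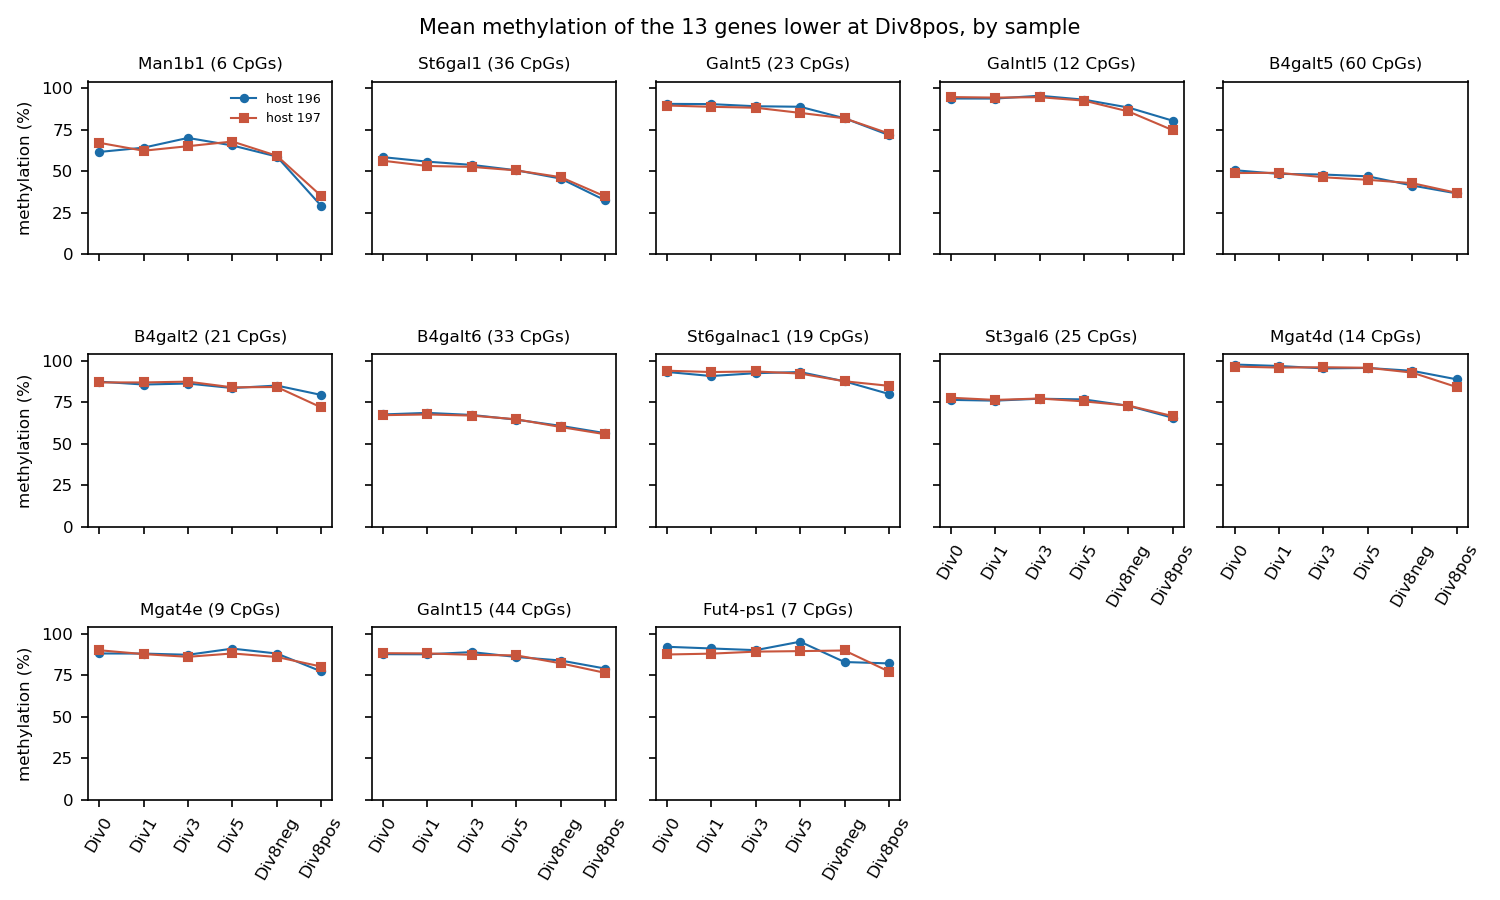
Mean methylation in percent (vertical axis) of each of the 13 genes lower at Div8pos than at Div0, in the 6 fractions (horizontal axis), with circles for host 196 and squares for host 197. The Div8pos values of both hosts lie below their Div0 values in all 13 panels, and Man1b1 falls between Div8neg (59.0%) and Div8pos (32.0%).

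Single CpGs were called lower or higher where fraction means differed by at least 20 points with an adjusted p under 0.05 in a quasi-binomial model of the reads. At Div8pos, 333 member CpGs (7.55%) in 66 genes were lower than at Div0, beside 6.61% of all CpGs, and 2 were higher, beside 0.0271%. The median of the 333 CpGs, which this contrast chose, was 92.9% at Div0, 86.2% after 5 divisions, 76.6% at Div8neg and 60.3% at Div8pos. Of them 38 (11.4%) ended under 20%, beside 6.87% of all lower CpGs. Without the Div0 library of host 197 the count was 109, and with the dispersion of each CpG taken alone it was 0 (903 at an unadjusted p under 0.05).

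Among the sialyltransferases, which put the terminal sialic acid on a chain, St6gal1 changed most. It places sialic acid on the galactose of N-glycans. Its 36 CpGs, between chr16:23225482 and chr16:23393567 (mm9, as for all positions from here on), averaged 58.4% in host 196 and 56.2% in host 197 at Div0, 50.5% and 50.4% after 5 divisions, 45.5% and 46.3% at Div8neg and 32.4% and 34.7% at Div8pos. Both hosts were lower at Div5 than at Div0, lower again at Div8neg and lowest at Div8pos, with no overlap between these fractions. The difference of Div8pos from Div0 was -23.8 points (SE 1.13, limma adjusted p = 1.25e-06). St6gal1 was the only member lower at Div8neg than at Div0 (-11.4 points, adjusted p = 0.000408) and 1 of the 2 lower at Div8pos than at Div8neg (-12.4 points, adjusted p = 0.000166). At CpGs with at least 20 reads in all samples these last differences were -5.70 and -8.69 points and were not called. With reads summed over the gene the second, St6gal1, Div8pos minus Div8neg, was -8.26 points and was not called either (adjusted p = 0.11). At 22 other CpGs, of the second deposited table, the gene mean was 71.7% at Div0 and 45.5% at Div8pos (-26.1 points, adjusted p = 3.18e-05). In that table St3gal1 (-13.6 points), Galntl5 (-11.8) and St6gal1 (-11.7) were the members lower at Div8neg than at Div0. There 6 members, St6gal1 among them, were lower at Div8pos than at Div8neg.

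The CpGs of St6gal1 fell into blocks that behaved differently. The 12 CpGs from 23225482 to 23226065, intronic in the deposited annotation and overlapping the RefSeq start shown above, were between 0% and 8.47% at Div0 and between 0% and 5.98% at Div8pos. Further on, some CpGs of an intronic block lost methylation from the third division. Through the 6 fractions, from Div0 to Div5 and then Div8neg and Div8pos, the CpG at 23235460 was at 60.9%, 46.7%, 17.5%, 6.23%, 27.3% and 0.543%, and 23235441 at 82.7%, 68.0%, 41.4%, 12.5%, 24.3% and 3.26%. The hosts differed at Div0, with 70.6% in host 196 and 51.3% in host 197 at 23235460, and 100% and 65.4% at 23235441. These CpGs were the only ones of St6gal1 lower at Div3 (adjusted p = 1.89e-05 and 0.00215), and both hosts were below their Div0 values there. Their levels at Div8neg lay above those at Div5, in the fraction where the Cd22 promoter also lay higher than at Div5, and that difference was not tested. Beside them, 23234550 went from 88.7% at Div0 to 57.9% after 5 divisions, 40.5% at Div8neg and 5.69% at Div8pos, and was lower from Div5 on (adjusted p = 0.00122). The start nearest to these CpGs in the deposited annotation is listed under another transcript than the one they are assigned to.

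In a later block of St6gal1 no CpG was called lower at Div5. The intronic CpG at 23300714 was 100% in both hosts at Div0, 98.0% after 5 divisions, 65.7% at Div8neg and 9.99% ± 7.4 at Div8pos. Likewise 23309121 was 100% at Div0 and after 5 divisions, 78.5% at Div8neg and 27.6% at Div8pos, and 23309264 was 91.7%, 77.8%, 55.7% and 10.4%. The last of these was below its Div0 level after 5 divisions in both hosts (95.5% to 73.3% and 87.9% to 82.2%), though not called. Each of the 3 was lower at Div8pos both than Div0 and than Div8neg. Between the early and late blocks the 6 CpGs from 23260220 to 23263514 remained at or above 76.6% in every library. In the exon at 23321585-23321702, 3 CpGs averaged 91.2% at Div0, 77.3% at Div8neg and 57.3% at Div8pos. In all 14 CpGs of St6gal1 were lower at Div8pos than Div0, 8 at Div8neg, 3 at Div5 and 2 at Div3.

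**Figure D2:**
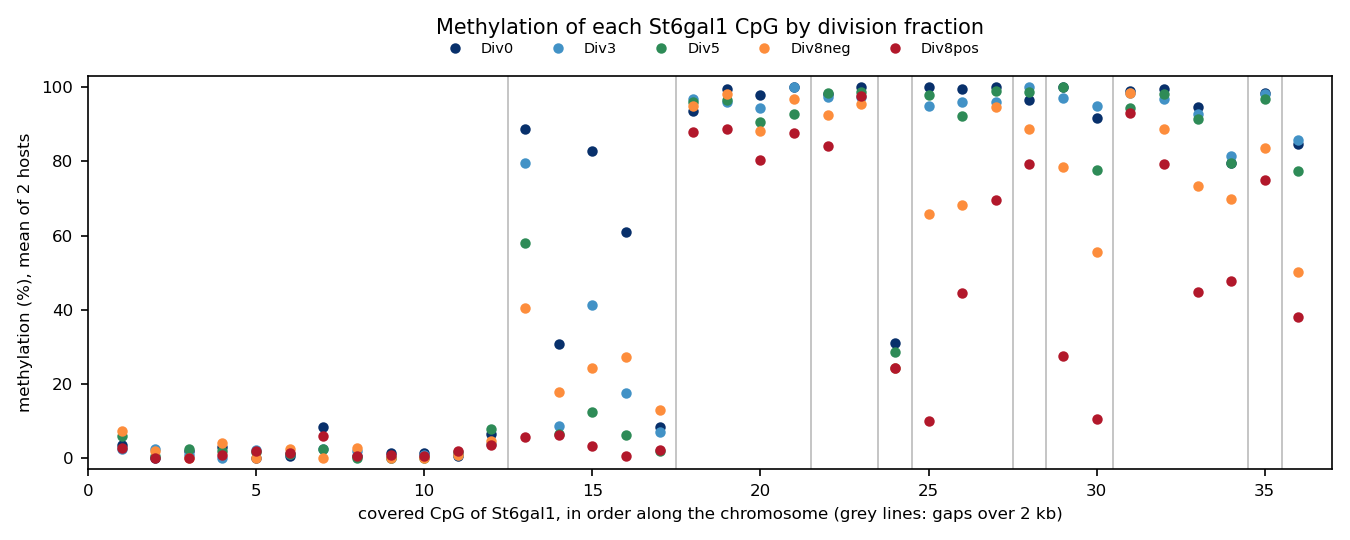
Methylation in percent (vertical axis, mean of the 2 hosts) of each covered CpG of St6gal1 in its order on the chromosome (horizontal axis), coloured by fraction, with Div1 left out for clarity. The first 12 CpGs stay under 9%. In the following block 23235441 (12.5%) and 23235460 (6.23%) are low already at Div5, while 23234550 is at 57.9%. The block further right lies between 77.5% and 100% at Div5 and is lowest at Div8pos.

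In the first table the other sialyltransferases differed by less over the whole gene, with losses in short stretches. At CpGs of the second table St3gal1, St3gal2, St3gal4, St6galnac3, St8sia4 and St8sia5 were lower at Div8pos, with differences of -20.5 to -10.5 points. The rest, St3gal6 and St6galnac1 among them, were not called there. Of all 15756 genes with such CpGs, 4850 were lower at Div8pos than at Div0, so a call there was common. St3gal2, which sialylates galactose on O-linked chains and glycolipids, had the run with the most lower CpGs of any member. Its 7 CpGs at chr8:113475081-113475324, in an intron 31315 to 31558 bases from the start site, were at 81.3% and 77.8% (hosts 196 and 197) at Div0, 60.6% and 60.8% after 5 divisions, 51.4% and 48.2% at Div8neg and 14.9% and 12.6% at Div8pos. The hosts lay close together and no fraction of these 4 overlapped another. All 7 CpGs were lower at Div8pos than at Div0 and than at Div8neg, 5 were already lower at Div8neg, and 2, at 113475135 and 113475153, were lower at Div5 (adjusted p = 0.00562 and 0.00487). Over all 96 CpGs of St3gal2 the difference was -9.91 points (SE 0.71, adjusted p = 3.73e-06), just inside the limit of 10. St3gal1, which acts on O-linked chains, had an intronic run of 3 CpGs at chr15:66947379-66947545 at 78.9% ± 1.6 at Div0, 69.7% ± 2.0 after 5 divisions, 46.2% ± 7.2 at Div8neg and 38.5% ± 0.2 at Div8pos. Here the CpGs were lower at Div8neg already and 0 of the 3 were called between Div8neg and Div8pos.

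St3gal6, which adds sialic acid to lactosamine ends, was lower over its 25 CpGs at Div8pos (77.2% ± 0.92 to 66.2% ± 0.72, -10.9 points, adjusted p = 2.42e-06). St6galnac1, which sialylates the first sugar of O-linked chains, was lower from 93.8% to 82.6% (-11.2 points), but was at -8.74 points and not called without the Div8pos library of host 196. The sialyltransferases with the most CpGs were St6galnac3 (186 CpGs, 17 lower, -8.71 points), St6gal2 (141, 4 lower, -3.89 points), St8sia4 (135, 10 lower, -7.43 points) and St3gal3 (118, 7 lower, -6.14 points). St8sia4 builds polysialic acid. St8sia6, which adds sialic acid to sialic acid, stood at 22.0% at Div0 over 40 CpGs, of which 15 were promoter CpGs. Its 3 CpGs at chr2:13714401-13714561, 585 to 745 bases inside the start, were at 45.5%, 34.4%, 24.1%, 17.0%, 7.62% and 3.70% in the 6 fractions of host 196, in the same order, and at 35.4%, 27.2%, 24.0%, 16.1%, 9.73% and 1.84% in host 197. Both hosts had a lower value at each following fraction, and 1 of these CpGs was lower at Div5 (adjusted p = 0.00219). St8sia1, which makes the ganglioside GD3, was among the 5 members with at least 50% methylation at Div0 and the smallest differences (-4.80 points).

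Of the 7 B4galt genes, whose enzymes add galactose, 3 were lower at Div8pos (42.9%, beside 16.0% of all genes). The differences between family shares and those of all genes were not tested. B4galt5 and B4galt6 make lactosylceramide, the entry to complex glycolipids, and B4galt2 acts on lactosamine chains. B4galt5 was 50.5% and 48.8% at Div0, 46.8% and 44.7% after 5 divisions, 41.3% and 42.7% at Div8neg and 36.5% and 36.9% at Div8pos over 60 CpGs, with no overlap among these 4 fractions. The difference was -13.0 points (SE 0.97, adjusted p = 4.33e-06). B4galt6 had -11.4 points (SE 0.60, 33 CpGs) and B4galt2 -11.5 points (SE 1.89, 21 CpGs). The latter rested on host 197, since without the Div8pos library of that host it was -7.78 points and not called. At CpGs outside the first table the 3 genes differed by -7.35, -7.16 and -4.01 points (B4galt5, B4galt6, B4galt2) and were not called.

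The lower CpGs of B4galt5 lay on both sides of the gene rather than at its start. The 5 CpGs at chr2:167209448-167209657, 34769 to 34978 bases before the start and outside the gene, were 78.3% ± 3.9 at Div0, 70.6% ± 0.63 after 5 divisions, 49.7% ± 12 at Div8neg and 37.3% ± 2.0 at Div8pos. At the other end, outside the gene, 167121938 went from 86.5% at Div0 to 40.8% at Div8neg and 11.1% at Div8pos. Its neighbour at 167122136 was 96.4% at Div0, 71.1% after 5 divisions, 46.9% at Div8neg and 50.1% at Div8pos and was lower from Div5 on (adjusted p = 0.00048). B4galt1, the main lactosamine galactosyltransferase, had 3 lower CpGs of 72 and -4.37 points.

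The 8 B3gnt genes, whose enzymes add N-acetylglucosamine to lengthen chains, had 0 lower genes, beside 16.0% of all genes. They had 12 lower CpGs of 266 (4.51%, beside 6.61% of all CpGs). Their median at Div0 was 29.7%, beside 56.4% over all genes. B3gnt2, the main enzyme of poly-lactosamine, held 7 of these CpGs. Its run of 3 CpGs outside the gene at chr11:22717374-22717405 was 92.1% ± 1.2 at Div0, 83.1% ± 1.6 after 5 divisions, 75.6% ± 7.4 at Div8neg and 44.4% ± 1.3 at Div8pos. These 3 were lower at Div8pos than Div8neg as well. A run in its exon, at 22736848-22736887, went from 93.1% to 63.2%. B3gnt7, with the most CpGs of the family (51), differed by -5.86 points.

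Of the 9 Mgat genes, 2 were lower at Div8pos (22.2%, beside 16.0% of all genes). Mgat4d, known as an inhibitor of Mgat1, went from 97.2% to 86.6% over 14 CpGs and Mgat4e from 89.1% to 78.8% over 9. Without the Div8pos library of host 197 Mgat4d was at -8.32 points, and without that of host 196 Mgat4e was at -8.87, and neither was then called. The enzymes of branching themselves had lower stretches within them. Mgat4a, which adds a branch on one arm of the N-glycan, was -9.07 points over 65 CpGs and held 10 lower CpGs. In its intron 5 of the 8 covered CpGs at chr1:37545538-37546029 were lower, and the 8 averaged 55.6% and 47.1% at Div0, 42.5% and 46.5% after 5 divisions, 56.0% and 37.9% at Div8neg and 23.0% and 20.1% at Div8pos. Div8pos lay apart from all other fractions, while Div0, Div5 and Div8neg overlapped. The first 3 of these CpGs were lower at Div8pos than at Div8neg (58.4% ± 17 to 16.5% ± 4.6). The nearest start to this stretch in the deposited annotation is listed under another transcript than the one its CpGs are assigned to.

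Mgat5, which adds the branch favoured by poly-lactosamine, held 17 lower CpGs of 130 and differed by -9.21 points (SE 0.66). Its intronic CpG at 129276931 was 61.4% ± 23 at Div0, 16.2% ± 11 after 5 divisions, 26.5% ± 12 at Div8neg and 0% in both hosts at Div8pos. Another, 129240328, went from 53.8% at Div0 to 21.2% at Div5 (adjusted p = 0.0062) and stood at 34.0% at Div8pos, where its difference from Div0 was under 20 points. The CpGs before the Mgat4c start shown above were methylated in every fraction, and 1 of the gene's 14 CpGs was lower at Div8pos.

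Among the mannosidases, Man1b1 had the largest difference of all 76 genes. Its enzyme trims mannose in the endoplasmic reticulum and the Golgi and takes part in the disposal of misfolded glycoproteins. Over its 6 CpGs, at chr2:25188982-25194280 and 718 to 6016 bases inside the start, it was 61.5% and 67.1% at Div0, 65.4% and 67.8% after 5 divisions, 58.8% and 59.2% at Div8neg and 29.0% and 35.0% at Div8pos. Only the Div8pos libraries were low, and neither overlapped any other library. The difference from Div0 was -32.3 points (SE 2.41, adjusted p = 4.32e-06) and that from Div8neg -27.0 points (adjusted p = 0.000154). The 3 intronic CpGs at 25194164-25194280 averaged 42.8% ± 9.1 at Div0, 44.6% ± 0.094 after 5 divisions, 42.3% ± 2.7 at Div8neg and 7.94% ± 1.2 at Div8pos, and all 3 were lower at Div8pos than at either. In the exon, 25189046 went from 73.6% to 30.8% and 25188999 from 86.2% to 51.5%, both lower than at Div0. Also there, 25188982 was at 85.8% at Div8pos, below its Div0 level by less than 20 points. With 6 CpGs the gene rests on few sites. It had too few CpGs for a value at 20 reads or in the second table.

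The Golgi mannosidases that prepare chains for branching had smaller differences over more CpGs. Man1a was -6.72 points over 62 CpGs, Man1a2 -7.65 over 65 and Man1c1 -7.39 over 203. Man1a held an intronic run at chr10:53782504-53782828, 4 of 5 CpGs lower, at 95.5% and 93.7% at Div0, 84.9% and 84.8% at Div8neg and 59.0% and 65.2% at Div8pos. Man1a2 had a run of 3 CpGs outside the gene, 52278 to 52467 bases before the start, at 91.6% ± 4.8 at Div0, 75.0% ± 0.31 at Div8neg and 39.6% ± 14 at Div8pos, with host 197 (29.6%) below host 196 (49.5%). In both runs the Div8neg and Div8pos libraries did not overlap. Man1c1 also held 1 of the 2 higher CpGs, an intronic one at chr4:134228094 with 38.9% ± 4.5 at Div0, 62.0% at Div3 and 60.2% ± 1.9 at Div8pos (adjusted p = 0.026). The Golgi enzyme Man2a2, with the most CpGs of the 5 Man2 genes (68), differed by -2.75 points. Of the Man2 genes 0 were lower, beside 16.0% of all genes.

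Of the 7 Fut genes, whose enzymes add fucose, 1 was lower (14.3%, beside 16.0% of all genes). This was Fut4-ps1, from 89.8% ± 3.3 to 79.7% ± 3.5 over 7 CpGs (limma adjusted p = 0.00734). It is a pseudogene, and it was not called without the Div0 library of host 196 (-7.82 points) or the Div8pos library of host 197 (-7.70 points). Fut8, which puts fucose on the core of N-glycans, including those of antibodies, had 9 lower CpGs of the 108 listed under its symbol. Over all CpGs the lower share was 6.61%. Of the 108, 75 lay more than 50 kb from the nearest start. The gene differed by -7.25 points (SE 0.60, limma adjusted p = 6.81e-06). Fut2 and Fut4 had 0 CpGs lower at Div8pos than at Div0, and 1 CpG of Fut4 was lower at Div8neg (-35.5 points, adjusted p = 0.048).

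Of the 17 Galnt genes, which start mucin-type chains, Galnt5, Galntl5 and Galnt15 were lower (17.6%, beside 16.0% of all genes). Galnt5 was 90.5% and 89.5% at Div0, 88.8% and 85.1% after 5 divisions, 81.8% in both hosts at Div8neg and 71.7% and 72.6% at Div8pos over 23 CpGs (-17.9 points, SE 1.13, adjusted p = 2.49e-06). The 4 fractions did not overlap. At 16 CpGs of the second table it differed by -20.6 points. Of its 8 lower CpGs, 7 lay outside the gene. Galntl5 (12 CpGs) went from 94.2% to 77.5% (-16.7 points) and Galnt15 (44 CpGs) from 88.0% to 77.8% (-10.3 points), which was close to the limit and not called in 4 alternative settings. Its 4 lower CpGs in an intron at chr14:32851292-32851520 went from 85.9% to 61.0%.

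Galnt7, an enzyme that extends clusters already begun, differed by -5.85 points over 69 CpGs but had an early intronic run. Its 4 CpGs at chr8:60019903-60020075 were 86.0% and 83.1% at Div0, 69.8% and 67.0% at Div3, 51.4% and 60.8% after 5 divisions, 51.9% and 31.2% at Div8neg and 42.4% and 34.7% at Div8pos. The CpG at 60019917 was 74.5% ± 2.5 at Div0, 41.0% ± 1.4 at Div3, 34.8% after 5 divisions, 19.8% at Div8neg and 13.3% ± 2.6 at Div8pos and was lower from Div3 on (adjusted p = 0.00225). Of the 4, 0 were lower at Div8pos than at Div8neg, and 3 were lower at Div8neg than at Div0 already. For these 3 the nearest start in the deposited annotation is listed under another transcript than the one they are assigned to. Galnt2, with the most CpGs of the family (163), held the other higher CpG, at chr8:126778251, with 4.69% ± 6.6 at Div0, between 28.9% and 34.7% in the following 4 fractions and 32.8% ± 10 at Div8pos (adjusted p = 0.0165). Galnt10 (102 CpGs) had -9.62 points and Galnt6 (50 CpGs) -6.48, each with a run of 3 lower CpGs. Galnt13, Galnt12 and Galnt18 were among the 5 with the smallest differences from at least 50% (-2.74, -3.64 and -4.77 points), and Galnt3 had 0 of 42 CpGs lower at Div8pos than at Div0 and 1 lower at Div8neg (-23.0 points, adjusted p = 0.00527). At CpGs of the second table Galnt18 (-11.9 points) and Galnt3 (-15.3) were lower at Div8pos, and Galnt13 (-8.74) and Galnt12 (-6.85) were not called.

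**Figure D3:**
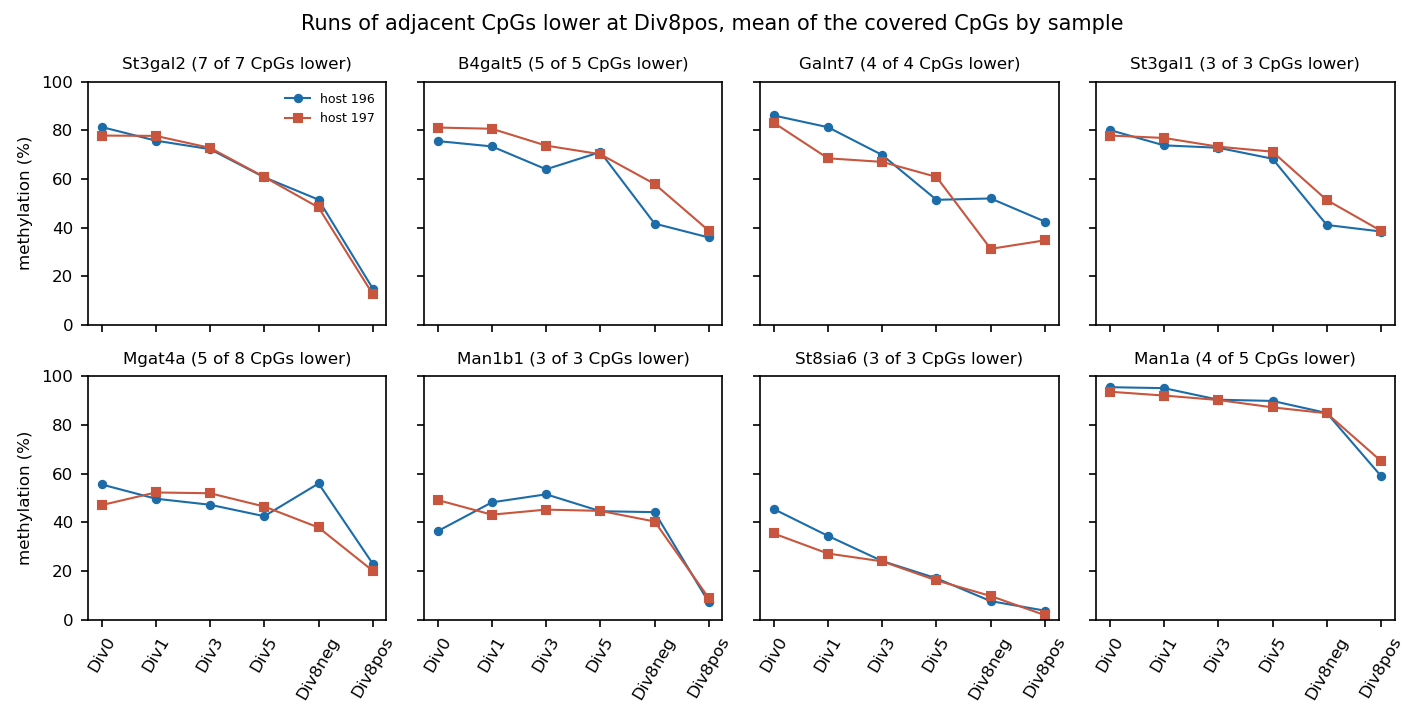
Mean methylation in percent (vertical axis) of the covered CpGs in 8 runs of lower CpGs, in the 6 fractions (horizontal axis), with circles for host 196 and squares for host 197. The mean of the 2 hosts is lowest at Div8pos in all 8 runs. Galnt7, St8sia6 and St3gal2 decline from the early divisions on. Before Div8pos, Man1b1 stays between 42.3% and 48.4% and Mgat4a between 44.5% and 51.3%. Man1a is at 94.6% at Div0, 84.9% at Div8neg and 62.1% at Div8pos.

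The lower CpGs of the members lay mainly in introns and outside the genes. Introns held 180 of them among 1887 CpGs (9.54%, beside 8.25% of the intronic CpGs of all genes), and CpGs outside the gene 120 of 956 (12.6%, beside 9.71%). Promoters, from 2500 bases before to 500 after the start, held 12 of 547 (2.19%, and 2.19% in all genes), exons 18 of 504 (3.57%, beside 3.13%) and 5′ UTRs 0 of 425 (beside 0.577%). The level at Div0 moved with this. CpGs under 20% at Div0 could not be called lower, and they made up 451 of the 547 promoter CpGs and 409 of the 1887 intronic CpGs. Among CpGs at 20% or more, 12 of 96 promoter CpGs (12.5%, beside 12.8% in all genes), 12.2% of intronic CpGs (beside 12.2%) and 13.4% of those outside the gene (beside 11.1%) were lower. Between 20% and 80% at Div0, 19.6% of 358 member CpGs were lower, beside 14.4% of all genes' CpGs, and at 80% or more 10.5% of 2513, beside 10.3%.

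The order of the losses was then followed by comparison. At Div1 against Div0, 0 member genes (0% of all genes) and 0 member CpGs (0% of all CpGs) were lower. In the same models 1 gene and 230 CpGs had an unadjusted p under 0.05. At Div3, 0 genes (0%, 2 at an unadjusted p under 0.05) and 3 CpGs were lower (0.068%, beside 0.0270% of all CpGs), 2 in St6gal1 and 1 in Galnt7. At Div5, 0 genes (beside 0.101%, 10 at an unadjusted p under 0.05) and 11 CpGs were lower (0.249%, beside 0.123%), namely 3 in St6gal1, 2 each in St3gal2, Mgat5 and Galnt7, and 1 each in B4galt5 and St8sia6. All but 1 of the 11 were intronic, the exception being that of B4galt5 outside the gene. Without the Div0 library of host 197 the count at Div5 was 4, without the Div5 library of that host 3 and without the Div0 library of host 196 7. At Div3 it was 0 without the Div3 library of host 197.

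At Div8neg against Div0, 1 gene was lower (1.32%, beside 1.34%) and 61 CpGs in 29 genes (1.38%, beside 0.781%). On adjusted p alone 50 genes were lower, beside 51.0% of all genes. The median gene difference was -2.97 points, beside -2.58. Among the members with lower CpGs were St6gal1 with 8, B4galt5 and St3gal1 with 6 each and St3gal2 with 5. Without the Div0 library of host 197 the CpG count was 13 and that of genes 2, and without the Div8neg library of that host they were 16 and 2. The Div8neg libraries are those with a mean of 25.1% at the Cd22 promoter.

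Between the CD138+ and CD138- cells of the last divisions, Man1b1 and St6gal1 were lower at Div8pos (2 of 76 genes, 2.63%, beside 1.94%). Of the CpGs 56 in 23 genes were lower (1.27%, beside 0.636%). On adjusted p alone 61 genes were lower, beside 61.0% of all genes, and the median difference was -3.55 points beside -2.99. St6gal1 held 8 of the 56 CpGs, St3gal2 7, Man1c1 5 and B3gnt2 4. The B4galt family had 9 lower CpGs at Div8neg against Div0 (3.64%, beside 0.781% of all CpGs). Here it had 0 of 247, beside 0.636% of all CpGs, and the difference between these comparisons was not tested. The count was 12 without the Div8pos library of host 197, 16 without the Div8neg library of host 197 and 33 without that of host 196, and without the Div8pos library of host 196 4 genes were lower. These comparisons share their Div0 or Div8 libraries, so their values are given side by side only.

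**Figure D4:**
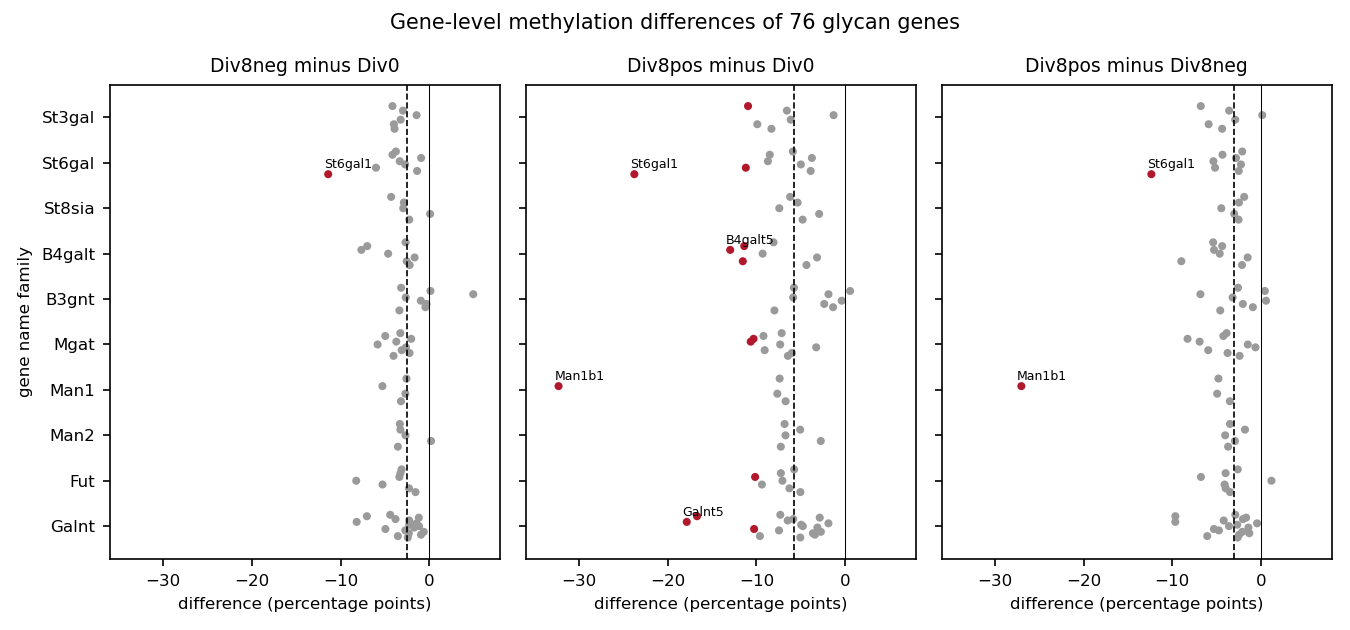
Difference in mean methylation in percentage points (horizontal axis) of each of the 76 genes by name family (vertical axis) in 3 comparisons, with red for genes that were lower, grey for the others and a dashed line at the median of all genes. Most members lie near the line, at medians of -2.97, -6.52 and -3.55 points, with St6gal1 and Man1b1 apart.

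Genes around these enzymes in the pathway were taken from 5 lists of 122 genes, of which 105 were measured. At Div8pos against Div0, 14 (13.3%, beside 16.0% of all genes) were lower and 0 higher. For the lipid-linked precursor and its transfer to protein, 5 of 21 were lower: the mannosyltransferases Alg1 (87.3% to 63.8%, -23.6 points) and Alg12 (-14.5), the dolichol kinase Dolk (-20.5), Dad1 (-17.3), a subunit of oligosaccharyltransferase, and the glucosyltransferase Alg10b (-10.3). Of 12 glucosidases and lectins of the endoplasmic reticulum, Uggt1, the folding sensor that puts glucose back, was lower (67.6% to 48.1%, -19.4 points). Of 26 genes for sugar donors and their transport, Gfpt1, which starts hexosamine synthesis, was lower (96.0% ± 1.3 to 71.1% ± 1.5, -24.9 points, adjusted p = 1.62e-06). Of 32 other Golgi transferases Mfng and B3galt5 were lower, and of 14 sialidases and lectins Siglec1, Cd22, Neu4, Asgr1 and Lgals4. Cd22, the receptor for the product of St6gal1, went from 78.2% to 66.5% over 43 CpGs (-11.8 points). At Div8neg against Div0, 3 of the 105 were lower (Alg1, Dolk and Uggt1; 2.86%, beside 1.34% of all genes). At Div8pos against Div8neg 5 were lower (Gfpt1, Alg1, Alg12, Neu4 and Siglec1; 4.76%, beside 1.94%).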

How the data were processed

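Libraries were made by reduced representation bisulfite sequencing of DNA cut with MspI and TaqI, amplified by PCR and read as single-end reads, per the labels. The deposited table gives methylated and unmethylated read counts of 12 samples at 760348 CpGs with at least 10 reads each, per the file headers and values. The same table gives each level as a fraction, per the file headers. Levels here are methylated reads over all reads, as a percent. Per the submitters' processing notes, Bismark, Bowtie2 and the build mm9 were used, with versions not given in the sources used here. Symbols, classes and distances are the deposited ones. A symbol names the nearest transcript, and the nearest start can be another gene's. A second deposited table was used only where named, at CpGs outside the first, and 30 of its sample columns were not used.

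A gene's level was the mean over its CpGs, tested over the 6 fractions with limma 3.58.1 in R 4.3.3 and Benjamini-Hochberg adjustment over all 16816 genes. Single CpGs were tested with a quasi-binomial model of their read counts, with adjustment over all CpGs, and its dispersion was moderated by limma's squeezeVar, which gave 1.16 for all CpGs. Both were tested on simulated data. Runs were at least 3 lower CpGs at most 500 bases apart, and their levels are means over all covered CpGs between the ends. Fractions with the same number came from the same host per the labels, but deviations from fraction means correlated by only -0.0138 to 0.0225 over 15 pairs of fractions. Read numbers differed between the libraries of each fraction by more than counting noise, so none was a copy. Reads carry no molecular identifiers, and separate hosts are the only replicates. Coverage sets the precision of single CpGs.

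Members, lists, limits and tests were chosen with earlier results of these data known. Named genes were those lower or higher in the comparisons among Div0, Div8neg and Div8pos, the member with the most CpGs in each of the 10 name families, members with a run, the 5 with at least 50% at Div0 and the smallest difference, and members with a higher CpG. Single CpGs within them, and members with 0 lower CpGs or other values just below the limits, were picked after their values were seen. Alternatives were a minimum of 20 reads, CpGs within 50 kb of a start, summed reads, a log2 ratio scale, limits of 5 and 10 points, 2 fractions alone, each CpG's own dispersion, the host as a block, leaving out each library, and the second table.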

Additional observations from a re-analysis of the deposited data

How the results depend on the processing

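Across the alternatives no named gene's difference that had been called reversed its sign. With the replicate block (hosts as pairs), 13 and 1 member genes were lower than Div0 at Div8pos and Div8neg and 2 were lower at Div8pos than Div8neg, as without it, and 316, 46 and 41 CpGs in place of 333, 61 and 56. It changed no call of a named gene. Summing reads over each gene gave 20, 5 and 1 lower genes, and a limit of 5 points gave 53, 9 and 17, with 1 at Div5. The median difference of all genes at Div8pos against Div0, -5.80 points, was itself past that limit. Shares of all genes or all CpGs under the altered settings were not taken, apart from the CpGs outside the first table. The counts for those settings are thus of members alone. The CpGs outside the first table, an alternative chosen after seeing the data, gave 23, 3 and 6 of 71 members. Beside these, 4850, 500 and 837 of all 15756 genes with such CpGs were lower. With at least 20 reads, which left 1512 member CpGs in 60 genes, 76, 14, 24, 4 and 1 CpGs were lower at Div8pos, at Div8neg, at Div8pos against Div8neg, at Div5 and at Div3, and 0 genes at Div8pos against Div8neg. A limit of 10 points gave 741 CpGs at Div8pos, and CpGs within 50 kb of a start 40 at Div8neg. With each CpG's own dispersion the counts were 0 in all comparisons (903, 278, 266, 106 and 82 CpGs had an unadjusted p under 0.05). Leaving out a library, where the lone sample of a fraction was assumed to vary like the others, gave 10 to 15 genes and 109 to 359 CpGs at Div8pos, 1 to 2 genes and 13 to 45 CpGs at Div8neg, 3 to 4 genes and 12 to 42 CpGs at Div8pos against Div8neg, 3 to 12 CpGs at Div5 and 0 to 3 at Div3. The causes of these changes were not tested, apart from the fewer CpGs and libraries. Depth limits the precision of single CpGs: the least covered library, Div0 of host 196, had a median of 20 reads.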
